A study of Oryza sativa with 18 samples.

Results

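The comparison described here is that of leaves of the rice line HHZ after 3 days of drought with leaves of well-watered HHZ, gene by gene. A gene was a member when its FPKM (fragments per kilobase of transcript, scaled to the mapped fragments of the library) was at least 1 in either column, and 18752 of the 39049 genes in the table were members. The measure was the log2 difference between the columns after 1 had been added to each FPKM, so that it understates the change of weakly expressed genes, and a gene was counted as higher or lower when this difference was at least 1 in size, a size rule of 2-fold. The series holds 18 leaf libraries of 3 genotypes: HHZ, the recurrent parent, P28, the donor parent, and H471, an introgression line with segments of P28 in the HHZ background. Plants grew in pots in a greenhouse with 14 h of daylight at 28 °C and 10 h of dark at 25 °C, water was withheld at tillering, and days were counted from the time the available soil water had reached 20%, so that the soil held 15% water after 1 day and 10% after 3 days. The 3 top leaves were taken for each sample, RNA of 3 independent replicates was pooled, and the deposited table gives 1 FPKM column for the 2 libraries of each genotype and condition.

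Each HHZ value is therefore a single pooled value of the authors with no error of its own, and the comparison of the 2 HHZ columns carries no SD, no n and no p-value. The hour of sampling is not given in the sources used here. Another measure used all 9 columns: limma fitted additive terms for genotype and condition, and its 3-day term is the change common to the 3 genotypes, with 4 residual degrees of freedom. A gene is said to have risen or fallen only when this term had a Benjamini-Hochberg adjusted p under 0.05. The error behind such p-values is the departure of the columns from the additive fit, those of day 1 included. It reflects how far the genotypes differ in their response to the conditions, and not the spread between plants. Gene symbols and descriptions are those of the best Arabidopsis match in the deposited table, and the functions given with them are known mostly from Arabidopsis. In the results, 3 FPKM values in a row are those of HHZ control, HHZ after 1 day and HHZ after 3 days, and 2 values are those of HHZ control and HHZ after 3 days. The size of a log2 difference from a control at or near 0 depends on the 1 added to each value. The leaves were bulk tissue, in which fewer cells of a type and less RNA per cell cannot be told apart.

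When a leaf loses water, abscisic acid accumulates and binds the PYL receptors, which then hold back the clade A protein phosphatases. The SnRK2 kinases are released, stomata close, and ABF-type factors switch on genes for dehydrins and other late embryogenesis abundant (LEA) proteins, which are small hydrophilic proteins of drying cells. Under longer drought, leaves of grasses commonly lose photosynthetic capacity and enter senescence, in which chlorophyll is taken apart step by step and the nitrogen and carbon of the leaf are exported as amino acids and sugars.

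Of the 18752 members, 16294 reached an FPKM of 1 in both columns, 1416 only in the control and 1042 only after 3 days. The gene nearest above the limit was LOC_Os10g11830, with an FPKM of 0.427 in the control and 1.00 after 3 days, and the nearest below was LOC_Os01g65950, with 0.9999 in the control and listed at 0 after 3 days. The size rule was passed upwards by 2113 members, 11.3% of those tested, and downwards by 2729, or 14.6%, while 13910 members did not pass it. Genes that were members through 1 column had to differ to some degree: 598 of the higher and 871 of the lower genes entered in this way. A log2 difference of at least 3 was reached by 251 higher and 385 lower genes, and one of at least 5 by 48 in each direction. The median difference over all members was -0.01.

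**Figure D1:**
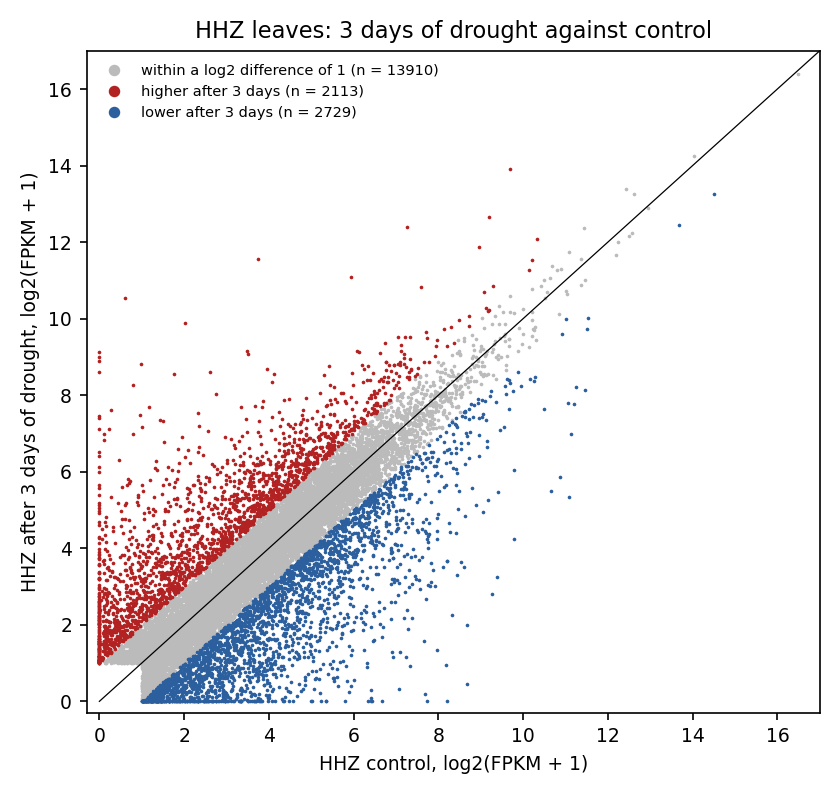
Each point is 1 of the 18752 members, with log2(FPKM + 1) in the HHZ control on the x axis and after 3 days of drought on the y axis, and the line marks equal values. The 2113 higher genes (red) and the 2729 lower genes (blue) lie across the range of expression, and 13910 genes (grey) lie within a log2 difference of 1.

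The sums of FPKM were alike, 841703 in the control and 846264 after 3 days, and the median FPKM of genes at 1 or more was 13.4 in both. The higher genes together made up 4.96% of the control column and 21.0% of the 3-day column, and the lower genes 23.6% and 6.39%. The size rule chose these genes by the same columns, so the direction of these shares was fixed in advance and only their size is described. The share of members passing the size rule was lowest between mean FPKM 10 and 100, where 10.5% were higher and 12.4% lower of 9259 members, and above 1000 it was 20.7% in each direction of 58 members. FPKM gives no read counts, so that the depth behind a single value is unknown and a value of 0 is given only as listed at 0. Near-identical tandem copies share reads, and Cufflinks apportions them, so that single values of such copies are uncertain.

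In the limma fit over 20568 genes the 3-day term was positive at an adjusted p under 0.05 in 5562 genes (27%) and negative in 6201 (30.1%), or 57.2% in either direction. The limma counts of the lists and families below are to be read beside these shares. Their size rule counts are to be read beside 11.3% higher and 14.6% lower. Of the 2113 genes higher in HHZ, 1964 (92.9%) rose, and of the 2729 lower genes 2575 (94.4%) fell, in a fit that includes the HHZ columns themselves. With the HHZ columns left out, the fit to P28 and H471 alone gave the same sign in 97.3% of the higher and 98.3% of the lower genes, and the same sign with an adjusted p under 0.05 in 1696 (80.3%) and 2250 (82.4%). Over all 20568 genes, that fit to P28 and H471 was positive at this threshold in 3666 and negative in 4398.

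Genes of the abscisic acid pathway differed in direction from step to step, and within some of the steps. Among 8 measured genes of abscisic acid synthesis and breakdown, 2 were higher and 2 lower, and the limma term was up in 4 and down in 2. NCED3 (LOC_Os03g44380), whose product cleaves 9-cis-epoxycarotenoids in the rate-limiting step of abscisic acid synthesis, stood at an FPKM of 0.826 in watered HHZ, 29.4 on day 1 and 17.5 on day 3. Another NCED3 copy (LOC_Os12g42280) went the other way, from 4.30 to 0.962. CYP707A1 (LOC_Os02g47470), an abscisic acid 8'-hydroxylase, was at 5.16 and 16.4. Of the 3 PYL receptors measured, PYL8 (LOC_Os02g15640) alone passed the size rule, at 18.8 and 39.7.

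The clade A phosphatases, the negative regulators of the pathway, differed in 1 direction. Of 9 measured, 8 were higher, none was lower, and all 9 rose in the limma fit, with a median log2 difference of 2.35 in HHZ against -0.01 for all members. HAI2 (LOC_Os05g38290) was at 0.736 in well-watered leaves, 60.8 at 1 day and 126 at 3 days, a log2 difference of 6.19, with 6.31 in P28 and 5.69 in H471 (limma 6.06, SE 0.17, adjusted p 2.22e-06). The largest level was that of another HAI2 copy (LOC_Os01g62760), 45.3 in the control and 297 after 3 days. HAB1 (LOC_Os05g51510) was the 1 member inside the size rule, at 13.2 and 22.8.

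The SnRK2 kinases divided. Of 10 measured, 3 were higher and 2 lower, and 5 rose and 2 fell in the limma fit. The higher members were SNRK2-8 (LOC_Os03g27280, 12.5 to 53.9) and 2 copies of SNRK2-4 (LOC_Os10g41490, 18.6 to 71.6, and LOC_Os01g64970, 8.0 to 53.1). The lower were 2 copies of OST1, the kinase that acts in guard cells in Arabidopsis: LOC_Os07g42940 went from 159 to 64.7 and LOC_Os12g39630 from 151 to 63.6. Of 5 ABF-type factors, 3 were higher and none lower, among them ABF2 (LOC_Os01g64730), with 17.9 in watered HHZ, 107 on day 1 and 57.7 on day 3.

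Of 11 measured LEA proteins and dehydrins 10 were higher, with a median of 3.20. With a pseudocount of 5 this median was 1.67, below those of chlorophyll breakdown (2.17) and the clade A phosphatases (1.96), and with 0.1 it was 5.23. All 10 rose in the limma fit. The dehydrin RAB18 (LOC_Os11g26790) was listed at 0 in the control and reached 749 after 1 day and 558 after 3 days, while P28 went from 0.323 to 325 and H471 from 0.835 to 407 (limma 8.29, SE 0.27, adjusted p 3.21e-06). It was the largest difference of any described gene. Its neighbours LOC_Os11g26750, LOC_Os11g26760 and LOC_Os11g26780 form with it a run of 4 higher genes on chromosome 11 (LOC_Os11g26780, 0.162 and 137). The LEA gene LOC_Os05g46480 was listed at 0 in the control, at 267 after 1 day and at 62.5 after 3 days. The exception was SAG21 (LOC_Os01g21250), which was lower, at 195 and 73.4, after 673 at 1 day. In 10 of the 11 the 3-day level lay below the 1-day level, the exception being the seed maturation gene LOC_Os06g23350 (3.59 and 10.9), and the FPKM of the list summed to 490 in the control, 4151 on day 1 and 1884 on day 3.

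**Figure D2:**
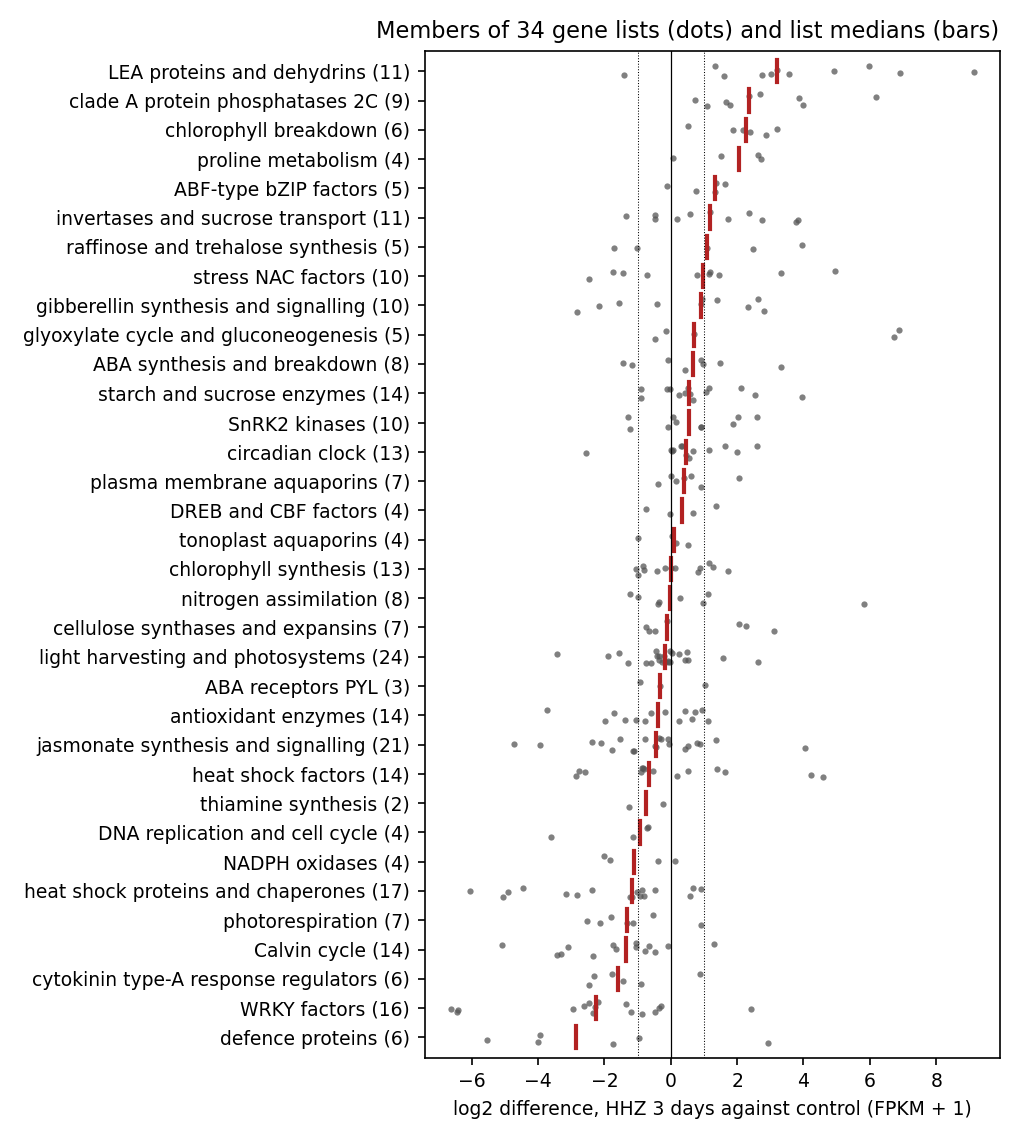
Each dot is 1 measured member of a gene list, placed by its log2 difference between HHZ after 3 days and HHZ control on FPKM + 1; red bars are list medians, numbers in brackets are members measured and dotted lines mark the size rule. LEA proteins and dehydrins (median 3.20) and clade A phosphatases (2.35) lie at the top, and WRKY factors (-2.24) and defence proteins (-2.84) at the bottom.

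Transcription factor families parted by type. Of 10 stress NAC factors, 5 were higher and 3 lower. The NAC gene LOC_Os07g48450 had the largest difference, 1.52 in well-watered leaves, 11.5 at 1 day and 77.3 at 3 days, and NAC102 (LOC_Os07g12340) the lowest, from 35.3 to 5.56. The 16 measured WRKY factors, many of which act in the response to pathogens and salicylic acid in Arabidopsis, included 11 lower and 1 higher gene, and 14 fell in the limma fit. WRKY70 (LOC_Os05g25770) was at 614 in watered HHZ, 21.3 on day 1 and 6.05 on day 3. The neighbouring WRKY40 copies LOC_Os09g25060 and LOC_Os09g25070 stood at 249.7 and 159.9 in the control and at 1.54 and 0.890 after 3 days. The higher member, WRKY2 (LOC_Os08g38990), went from 0.792 to 8.52. Among homeobox genes, a family chosen with its values known, 16 of 46 were higher and 4 lower, beside 11.3% and 14.6% of all members. The higher genes included 2 copies of ATHB-7, a gene induced by drought and abscisic acid in Arabidopsis. LOC_Os02g43330 was listed at 0 in the control and at 32.1 after 3 days, and LOC_Os04g45810 was at 4.12 and 99.9.

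By their median, heat shock protein genes stood below the control after 3 days and above it after 1 day. Of 17 measured heat shock proteins and chaperones, 10 were lower and none was higher, with a median of -1.16, beside a 1-day median of 1.74 against the same control column. HSP70 (LOC_Os03g16860), a chaperone of unfolded proteins, was at 317 in well-watered leaves, 384 at 1 day and 3.81 at 3 days. The 3-day values in P28 and H471 were 3.76 and 3.96, from controls of 349 and 341, and the limma term was -6.12 (SE 0.09, adjusted p 6.72e-07). An HSP90 gene (LOC_Os08g39140) followed the same course, with 209.6, 291 and 5.41. The small heat shock protein gene LOC_Os06g14240 went from 28.1 through 254 to 0.334. BIP (LOC_Os02g02410), the chaperone of the endoplasmic reticulum, was at 424 and 81.0. HSC70-1 (LOC_Os11g47760) went the other way, 685 to 1289, just inside the size rule. Of 14 heat shock factors, 4 were higher and 3 lower: the B-type factors HSFB1 (LOC_Os09g28354, 52.7 to 6.43) and HSFB2A (LOC_Os09g35790, 25.5 to 3.41) were lower, and the C-type factor LOC_Os06g35960 was higher (1.29 to 53.7).

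Clock genes, whose transcripts follow the time of day, also differed between the columns. Of 13 measured, 4 were higher and 1 lower. LHY (LOC_Os08g06110), a gene that peaks near dawn in Arabidopsis, was at 1.49 in watered HHZ, 389 on day 1 and 14.2 on day 3. LUX (LOC_Os01g74020), an evening gene there, was at 493, 1.20 and 84.0. Their part in the other differences was not tested, and time of day and drought cannot be told apart where the hour of sampling is not known. LHY and LUX lay nearer to the control after 3 days than after 1 day. The median log2 difference of the list, in which genes of opposite sign offset each other, was 0.45 at 3 days and 0.06 at 1 day.

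The 24 measured genes of light harvesting and the photosystems had a median of -0.18, with 2 higher and 4 lower in HHZ, and 4 rose and 12 fell in the limma fit. Their median was -0.44 in P28 and -0.41 in H471, and in HHZ their FPKM summed to 19724 in the control, 75315 on day 1 and 20247 on day 3. Within this list NPQ4 (LOC_Os01g64960), which encodes the PsbS protein of energy dissipation in photosystem II, was the lowest, at 215, 600.1 and 18.9. The minor antenna genes LHCB4.2 (LOC_Os07g37240, 1223 to 328), LHCB5 (LOC_Os11g13890, 344 to 142) and LHCB6 (LOC_Os04g38410, 204 to 68.9) were lower too. LHCA3 (LOC_Os02g10390), of the photosystem I antenna, was higher, at 624 and 1856. A major antenna gene, LHCB1 (LOC_Os01g41710), was at 1192 and 991, inside the size rule.

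The Calvin cycle was lower in most of its measured genes. Of 14 measured genes 9 were lower and 1 higher, and 11 fell in the limma fit, and the FPKM of the list summed to 8322 in the control, 27846 on day 1 and 2139 on day 3. The small subunit of Rubisco, the carbon-fixing enzyme, carried much of this sum: the RBCS1A copies LOC_Os12g17600 and LOC_Os12g19381 were at 2815 and 2348 in the control, 3505 and 3247 after 1 day, and 282 and 218 after 3 days. These copies are near-identical, so that the split between them is uncertain. GAPA-2 (LOC_Os04g38600), of the reductive step, was at 183 and 20.3, and phosphoribulokinase (LOC_Os02g47020), which regenerates the acceptor, at 302 and 94.8. Rubisco activase (LOC_Os11g47970) was the higher member, at 158 in well-watered leaves, 8678 at 1 day and 391 at 3 days. Photorespiration followed, with 5 of 7 genes lower and none higher, among them AOAT2 (LOC_Os07g01760), a peroxisomal aminotransferase, at 1237 and 357.

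The 5 marker genes of mesophyll cells, all of them members of the photosynthesis lists above, summed to 4735 in watered HHZ, 19373 on day 1 and 1695 on day 3, and 3 of the 5 were lower and 1, Rubisco activase, higher. All 4 vascular and secondary wall markers were higher, with sums of 52.6 and 202. Most of both sums came from the sucrose symporter LOC_Os03g07480, which is also given with the sugar transport genes below. The 2 measured guard cell markers stayed inside the size rule, with a median of -0.08. Both shoot meristem markers were listed at 0 in these columns. Of 5 root markers 2 reached an FPKM of 1, with sums of 9.22 and 19.7 over the list, while the nitrate transporter NRT2.1 (LOC_Os02g02170) was listed at 0. The part of the make-up of the tissue in the results was not tested.

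Chlorophyll breakdown genes were higher after 3 days, with a smaller median difference after 1 day. Of 6 measured, 5 were higher, none was lower and all 6 rose in the limma fit, with a median of 2.28 at 3 days beside 0.27 at 1 day. NYE1 (LOC_Os09g36200), which starts the breakdown by removing magnesium from chlorophyll, was at 37.9, 47.9 and 175. Pheophytinase (LOC_Os06g24730), which removes the phytol tail, was at 108, 123 and 399.6. Pheophorbide a oxygenase (ACD1, LOC_Os03g05310), which opens the ring, was at 39.6, 122 and 210.4, and the red chlorophyll catabolite reductase ACD2 (LOC_Os10g25030) at 35.9, 41.8 and 267. For ACD2 the limma term was 2.82 (SE 0.12, adjusted p 7.75e-06). Chlorophyll synthesis, by contrast, had a median of 0.01, with 3 of 13 genes higher and 1 lower.

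In the list for the glyoxylate cycle and gluconeogenesis, 2 of 5 measured genes were higher and none lower, with a median of 0.71 at 3 days beside 0.82 at 1 day. Isocitrate lyase (LOC_Os07g34520) and malate synthase (LOC_Os04g40990), the enzymes that are peculiar to this cycle and let cells turn fatty acids into sugar, stood at 0.0700 and 0.0715 in the control and at 2.21 and 0.894 after 1 day. After 3 days they were at 113 and 125. In P28 the 3-day values were 74.6 and 74.9, and in H471 242 and 277, from controls under 1 in both lines. The 3 other genes of the list were inside the size rule. Of 16 genes for peroxisomal fatty acid oxidation, a family chosen with its values known, 3 were higher and 1 lower, beside 11.3% and 14.6% of all members. In the limma fit 10 rose and 1 fell, beside 27% and 30.1% of all genes fitted. The acyl-CoA oxidase ACX4 (LOC_Os05g07090) was at 28.5, 38.8 and 124.

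Nitrogen assimilation genes were mixed. Of 8 measured, 2 were higher and 1 lower. In the limma fit 3 rose and 3 fell, beside 27% and 30.1% of all genes fitted. Nitrite reductase NIR1 (LOC_Os01g25484), a chloroplast enzyme, was at 9.06 and 20.8 and NADH-dependent glutamate synthase GLT1 (LOC_Os01g48960) at 20.5 and 41.0, and both rose. Chloroplast glutamine synthetase GLN2 (LOC_Os04g56400) was at 225 in the control and 112 after 3 days and ferredoxin-dependent glutamate synthase (LOC_Os07g46460) at 342 and 147, and both fell in the limma fit. Asparagine synthetase ASN2 (LOC_Os03g18130), which makes the amide in which nitrogen is exported from ageing leaves, was at 1.84, 5.19 and 160.0. Among 54 amino acid transporters, chosen as a family with their values known, 15 were higher and 11 lower, beside 11.3% and 14.6% of all members. AAP2 (LOC_Os11g09020), an amino acid permease, was at 3.98 and 91.2, and CAT5 (LOC_Os01g11160), a cationic amino acid transporter, at 132 and 5.84. Of 37 cysteine proteases, also a family chosen with its values known, 5 were higher and 3 lower, beside 11.3% and 14.6% of all members. The papain-type gene LOC_Os07g29760 had the largest increase of this family, at 6.41, 13.3 and 69.2. Only 1 of 16 autophagy genes passed the size rule, beside 25.8% of all members.

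**Figure D3:**
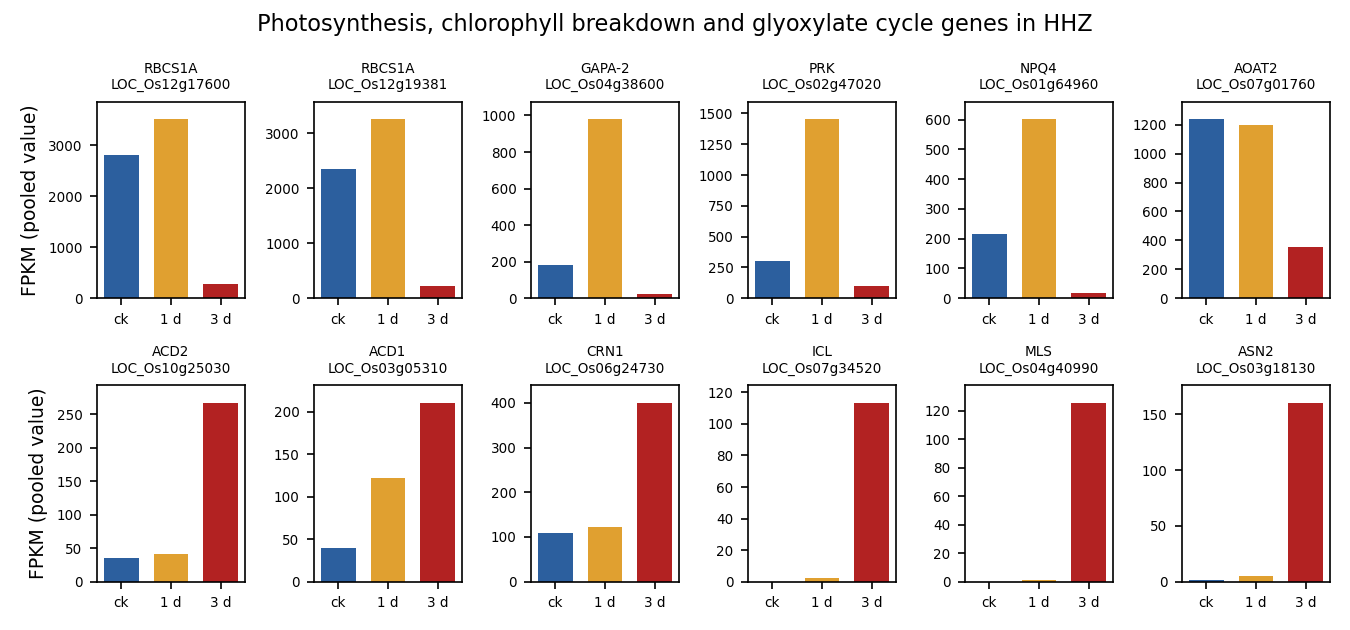
Bars give the authors' pooled FPKM of 12 genes in HHZ control (ck), after 1 day (1 d) and after 3 days (3 d) of drought, each panel on its own axis from 0. RBCS1A, GAPA-2, PRK, NPQ4 and AOAT2 were lowest after 3 days, and ACD2, ACD1, pheophytinase (CRN1), ICL, MLS and ASN2 were highest then.

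Genes for compatible solutes and sugar movement were more often higher than lower. Of 4 proline genes 3 were higher, with P5CS2 (LOC_Os05g38150), the first enzyme of proline synthesis, at 26.4, 213 and 178. Of 5 raffinose and trehalose genes 3 were higher and 2 lower, and 2 rose and 2 fell in the limma fit. Their median was 1.09 in HHZ, -0.07 in P28 and 0.93 in H471. Galactinol synthase GolS2 (LOC_Os07g48830), which begins raffinose synthesis, was at 2.46, 103 and 52.1. The seed imbibition gene SIP2 (LOC_Os07g10840), which is not among these 5 genes, was at 12.4, 1288 and 2992, one of the 15 largest increases. Of 11 invertases and sucrose transport genes 6 were higher and 1 lower. The sucrose symporter LOC_Os03g07480 was at 47.7 and 160.2, and 3 MtN3 (SWEET) family genes were higher, among them LOC_Os12g29220 at 1.26 and 29.7. Cell wall invertase 4 (LOC_Os02g33110) was the lower member, at 54.2 and 20.8. Beta-amylase BAM1 (LOC_Os10g32810), a starch-degrading enzyme, was at 6.60, 466 and 43.6.

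Aquaporins were near the control again. Of 7 plasma membrane aquaporins 1 was higher and none lower, with a median of 0.39 beside 3.76 at 1 day, and none of 4 tonoplast aquaporins passed the size rule, with 0.10 beside 3.82. PIP1;2 (LOC_Os02g44630), a water channel, was at 191, 1869 and 215. Among 14 antioxidant enzymes 5 were lower and 1 higher. The cytosolic ascorbate peroxidase APX1 (LOC_Os07g49400) had the largest difference, 883, 907 and 65.3, while the mitochondrial superoxide dismutase MSD1 (LOC_Os05g25850) was at 158 and 345. Catalase copies differed in sign: LOC_Os03g03910 was at 993 and 300.3, and LOC_Os02g02400 at 647 and 1071, inside the size rule.

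The lists of other hormones were mixed or lower. Of 21 measured jasmonate genes 8 were lower and 2 higher, with 10 falling and 3 rising in the limma fit. The neighbouring LOX2 copies LOC_Os08g39840 and LOC_Os08g39850 went from 147 and 116 to 8.59 and 3.45, whereas the LOX2 copy LOC_Os02g10120 went from 11.8 to 210.1. JAZ5 (LOC_Os07g42370), a repressor of jasmonate signalling, was at 155 and 29.0. Of 6 type-A response regulators of cytokinin signalling 4 were lower and none higher, and 5 fell in the limma fit, among them ARR9 (LOC_Os11g04720), from 34.4 to 5.50. In the gibberellin list 4 of 10 were higher and 3 lower. The 3 secondary wall cellulose synthases, CESA4 (LOC_Os10g32980, 1.35 to 19.3), CESA7 (LOC_Os09g25490, 1.54 to 11.2) and CESA8 (LOC_Os01g54620, 2.01 to 11.5), were higher and belong to the vascular markers given above, while the primary wall gene CESA1 (LOC_Os05g08370) was at 15.8 and 8.94.

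Defence genes and several families of cell surface receptors held many lower and few higher members. Of 6 defence proteins 4 were lower and 1 higher, the lowest median of the 34 lists drawn above (-2.84): PR1 (LOC_Os01g28450), a marker of salicylic acid signalling, was at 682, 42.9 and 43.3, and osmotin LOC_Os12g43410 at 878, 15.0 and 18.0. Families named from here to the end of the next paragraph were chosen with their values known. Over all members, 11.3% were higher and 14.6% lower, and the family counts are to be read beside these shares. Of 51 measured wall-associated kinases, receptors that sense the cell wall, 32 were lower and none was higher, and 41 fell in the limma fit. Their FPKM summed to 1268 in the control, 441 on day 1 and 230.1 on day 3. The lowest was LOC_Os04g29810, at 60.5, 1.45 and 0.311, a gene that was at 25.7 in the control of H471 and listed at 0 in that of P28. Of 38 cysteine-rich receptor-like kinases 26 were lower and 4 higher, with CRK39 (LOC_Os04g30040) at 44.1 and 0.835 and CRK2 (LOC_Os05g03920) at 4.30 and 38.9. Of 194 NB-ARC disease resistance genes 47 were lower and 7 higher, and of 129 leucine-rich repeat kinases 45 and 4. Among 53 glutathione S-transferases 29 were lower and 2 higher, and GSTU18 (LOC_Os10g38600) went from 134 to 0.254. Chitinases and beta-1,3-glucanases were divided by gene, with 8 higher and 9 lower of 28: chitinase LOC_Os01g47070 was at 1622 and 43.8, and chitinase LOC_Os05g15770 at 19.4 and 234.

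On the higher side, lipid-transfer type proteins, small secreted proteins that in many plants carry cuticular lipids, took a growing part of the transcript pool: 23 of 46 were higher and 4 lower, and their FPKM summed to 2896 in the control, 13377 on day 1 and 25119 on day 3, or 0.344% and 2.97% of the control and 3-day columns. LOC_Os12g02320 was at 825, 7134 and 15448, among the 10 highest levels of the 3-day column, and LOC_Os05g47730 was listed at 0 in the control and at 45.0 and 470.6 under drought. Of 17 genes for very-long-chain fatty acids and wax 9 were higher and 4 lower, and CER6 (LOC_Os03g12030), an elongase of wax precursors, was at 4.03 and 23.4. Of 36 histone genes 18 were higher and none lower, with HIS1-3 (LOC_Os04g18090), a drought-inducible linker histone of Arabidopsis, at 190.4, 1954 and 1829.8. Of 6 metallothioneins 3 were higher, among them LOC_Os03g17870 at 13.4 and 207. Few ribosomal protein genes passed the size rule, 6 higher and 8 lower of 314 with a median of -0.09, while 28 rose and 120 fell in the limma fit. Of 225 pentatricopeptide repeat genes 3 were higher and 13 lower, with a median of -0.34, and 16 rose and 113 fell.

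Some of the genes that differed followed each other in the order of members along a chromosome. Genes that were not members were passed over in this order, so that the genes of a run need not be adjacent. Runs of at least 4 neighbouring members that all passed the size rule in 1 direction numbered 47 on the lower side, with 230 genes and a longest run of 8, and 11 on the higher side, with 49 genes and a longest run of 6. The run of 8 held cysteine-rich receptor-like kinases from LOC_Os07g35160 on chromosome 7, with control values of 1.54 to 69.1 and 3-day values of 0.183 to 17.6. A run of 6 genes, those with a description being wall-associated kinases, began at LOC_Os04g29550 on chromosome 4, with 3.00 to 60.5 in the control and 0 to 3.01 after 3 days, and a run of 5 osmotins at LOC_Os12g43380 on chromosome 12, with 1.37 to 878 and 0 to 18.0. On the higher side a run of 6 genes, those with a description being wound-responsive family genes, began at LOC_Os04g54210, with 0 to 34.4 in the control and 1.81 to 109 after 3 days. Neighbours of 1 family can share reads.

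The 15 largest increases among described genes that reached an FPKM of 10 had log2 differences of 6.52 to 9.13, and the 15 largest decreases -5.64 to -8.24. In the limma fit to the P28 and H471 columns alone, which did not choose them, all 15 increases and all 15 decreases had the same sign with an adjusted p under 0.05. Beside the dehydrins, lipid-transfer type genes and glyoxylate enzymes above, the increases held the sulfurtransferase STR18 (LOC_Os12g24020, 0.734, 49.0 and 309.6), the early nodulin-like gene ENODL9 (LOC_Os06g46740, 0.206, 177 and 194) and the mannose-binding lectin gene LOC_Os01g24710 (0.961, 3.00 and 446). The lectin gene reached 12.4 in P28 and 392 in H471 after 3 days. Among the decreases, CYP72A15 (LOC_Os01g43750), a cytochrome P450, was at 411, 2.10 and 0.361. UGT88A1 (LOC_Os01g53350), a glucosyltransferase, was at 406, 5.21 and 2.98, and the calmodulin-like gene CML42 (LOC_Os05g24780) at 669, 5.13 and 8.54. LSU1 (LOC_Os02g03710), a gene induced by low sulfur in Arabidopsis, differed in course, at 201 in watered HHZ, 177 on day 1 and 1.97 on day 3. The largest increase of any member was that of LOC_Os03g61160, a gene with no description chosen after its values were seen, at 0.512, 59.5 and 1498.

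**Figure D4:**
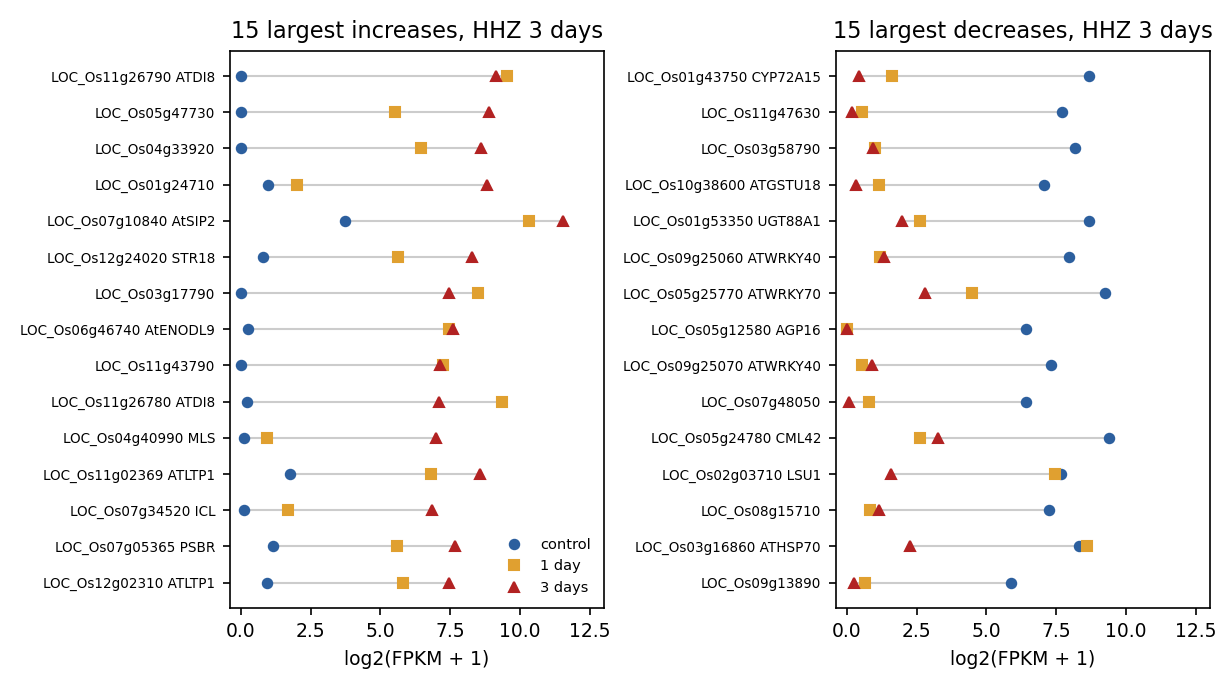
The 15 largest increases (left) and 15 largest decreases (right) among described genes are drawn by their log2(FPKM + 1) in HHZ control (blue circles), after 1 day (yellow squares) and after 3 days (red triangles). LSU1 and HSP70 are near the control after 1 day and low after 3 days, whereas CYP72A15 is low at both times.

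The study took a subset of the genes that differed in these libraries for qPCR, which it ran on other plants, so that the direction of these genes here is not independent evidence. Of 29 such genes measured here 10 were higher and 10 lower in HHZ. The sequences below are the oligos used in that assay for 2 genes that were higher and 2 that were lower, and they are shown because they define the amplified stretch of each transcript. They were not placed on the genome here.
LOC_Os04g40990 forward: ggacgacttcctcacgct
LOC_Os04g40990 reverse: ggagaagttacacggagagaat
LOC_Os02g36880 forward: caccgattattgattgtgttgta
LOC_Os02g36880 reverse: cacttcgttctcttgtgatttg
LOC_Os01g72530 forward: atccctccgctagctccat
LOC_Os01g72530 reverse: aaccaatcaagtgaactgagcat
LOC_Os08g15050 forward: ccagaaacccctctcccaat
LOC_Os08g15050 reverse: ccaccacggaatcagaaagc

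LOC_Os04g40990 is the malate synthase gene described above. The NAC gene LOC_Os02g36880 was at 12.4 in HHZ control and 29.0 after 3 days, with 11.3 and 17.0 in P28 and 8.73 and 60.9 in H471. LOC_Os01g72530, described as a calcium-binding EF-hand protein, was at 33.0 and 2.29 in HHZ, 44.5 and 2.39 in P28, and 36.7 and 12.3 in H471. COL5 (LOC_Os08g15050), a CONSTANS-like gene, was at 42.3 and 2.78 in HHZ, 49.3 and 8.81 in P28, and 48.0 and 21.4 in H471. Each of the 4 genes had the same sign in the 3 genotypes and passed the limma test.

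Whether HHZ differed from the other genotypes after 3 days was addressed in several ways. By the size rule within each genotype, 1869 of 18899 genes were higher in P28 (9.89%) and 2771 lower (14.7%), and 2237 of 18852 higher in H471 (11.9%) and 2798 lower (14.8%). P28 shared 1446 of the higher genes, 68.4% of the HHZ and 77.4% of the P28 list, and 2035 of the lower ones, 74.6% and 73.4%. H471 shared 1606 of the higher genes, 76.0% of the HHZ and 71.8% of the H471 list, and 2084 of the lower ones, 76.4% and 74.5%. Genes past the rule in opposite directions numbered 18 with P28 and 24 with H471. Across genes, which are not independent replicates, the 3-day difference of HHZ had a Pearson r of 0.91 with that of P28 and of 0.90 with that of H471.

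Genes past the size rule in HHZ alone numbered 324 higher and 324 lower, or 15.3% of the 2113 higher and 11.9% of the 2729 lower genes of HHZ. Their HHZ medians lay close to the limit, at 1.15 and -1.18, beside 0.54 and -0.61 for the mean of the other genotypes, and 72.5% and 74.7% of them had the HHZ sign in both others. The test of the difference was the limma term for the departure of HHZ at 3 days from the additive fit, with 3 residual degrees of freedom. It called 1 of 20568 genes (0.00486%), by limma, and 641 had an unadjusted p under 0.05. The median standard error of this term was 0.24 on the log2 scale, so that moderate differences between genotypes could not be seen. Larger ones could be missed too, such as the departure of 2.50 of the lectin gene LOC_Os01g24710, which was not called. The called gene, LOC_Os04g20520, has no description. It stood at 35.6 in HHZ after 3 days and was listed at 0 in the 8 other columns. It entered the fit through that 1 pooled column alone, and its departure of 5.20 restates that value on the log2 scale, so that nothing is read from the call. No gene was called upwards when the columns of P28 or of H471 were left out. The lipid transfer gene LTP1 (LOC_Os12g02310) was at 176 in HHZ after 3 days, 72.8 in P28 and 68.1 in H471, from controls of 0.936, 1.60 and 1.23, a departure of 1.68 (SE 0.13) that did not pass (adjusted p 0.135).

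**Figure D5:**
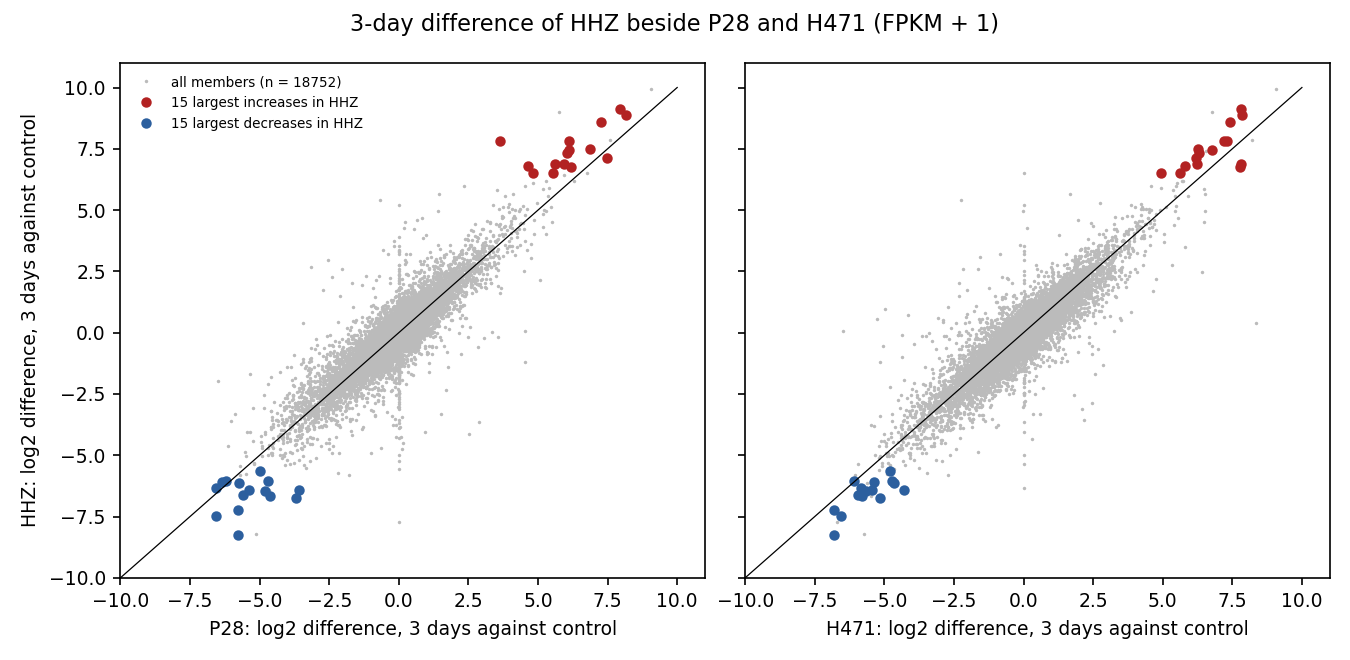
Each grey point is 1 of the 18752 members, with its log2 difference between 3 days and control in P28 (left) or H471 (right) on the x axis and in HHZ on the y axis, and the line marks equal differences. The 15 largest increases (red) and decreases (blue) of HHZ have the same sign in both other genotypes, and most lie farther from 0 in HHZ, by which they were chosen.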

How the data were processed

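The study sequenced rRNA-depleted, paired-end leaf libraries. The authors trimmed the reads with in-house scripts, mapped them to the MSU rice genome with TopHat and estimated FPKM with Cufflinks, with its corrections for fragment bias and for reads of several origins. No source used here gives tool versions. The deposited FPKM table holds 9 columns, each pooling 2 of the 18 libraries, with gene descriptions from the best Arabidopsis match. No read counts can be had from it, so that depth and counting error are unknown.

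The values were used as deposited, as log2(FPKM + 1). Members reached an FPKM of 1 in either HHZ column. limma 3.58.1 (R 4.3.3, trend option on) took in every gene that reached 1 in any column, with Benjamini-Hochberg adjustment, after being tested on simulated data. Tables were made with Python 3.11.15 and pandas 2.3.3.

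The members and gene lists were chosen with earlier results of these data known. Named genes were the 15 largest increases and decreases among described genes reaching an FPKM of 10, list members whose description in the table fitted the list (25 others were left out), the genes past the departure test, the 10 highest levels and their neighbours. Genes named outside these, families grouped by description, and the gene of largest increase, were chosen after their values were seen. Alternatives were the pseudocount, the scaling, the filter on low values, the size threshold, the limma settings and the columns entered.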

Additional observations from a re-analysis of the deposited data

Results flagged for a closer look

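LOC_Os04g20520, a gene with no description, was the 1 gene past the threshold of the limma term for the departure of HHZ after 3 days, with a log2 departure of 5.20. It stood at 35.6 in that column and was listed at 0 in the 8 other columns, so that the departure restates 1 pooled value and says nothing of the spread between libraries. The call was lost with a pseudocount of 0.1, with an FPKM of at least 10, with the columns of control and 3 days only, and without P28 or H471.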

How the results depend on the processing

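No paired analysis was possible because the 2 libraries of each group are pooled in 1 column, and for the same reason no replicate could be left out. The comparison of the HHZ columns counted 2113 higher and 2729 lower genes. With a pseudocount of 5 it counted 1226 and 1511, with an FPKM of at least 10 in either column 1373 and 1669, and with a log2 difference of at least 2 it counted 684 and 950. With a pseudocount of 0.1, with both scalings, with no filter and with an FPKM of at least 1 in both columns the counts stayed within 1.5 times. The share of higher genes among all past the rule was 43.6%, and 41.9% to 45.3% under the alternatives. The common term was positive at the threshold in 5562 genes in the fit to 9 columns and in 3666 in a separate fit to the P28 and H471 columns, which has fewer columns and residual degrees of freedom. The departure term called 1 gene upwards. It called 11 with no filter and 5 with no trend, and 0 with a pseudocount of 0.1 (379 at an unadjusted p under 0.05), an FPKM of at least 10 (247), the columns of control and 3 days only (332), without P28 (550), without H471 (374) and at an adjusted p under 0.01 (363). Downwards limma called 0 genes, with 278 at an unadjusted p under 0.05. Where the cause of these shifts does not lie in the setting itself, the cause was not tested. Of 40 list and marker medians 7 moved by more than the residual SD with a pseudocount of 0.1 and 14 with 5, and none with the scalings. No named gene changed sign, and of the medians only that of nitrogen assimilation did, from -0.03 to 0.0045 with median-ratio scaling.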
